A study of Mus musculus with 2 samples.

Results

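The genes described here encode the machinery that shortens, decaps and degrades mRNA and that removes faulty mRNA, and they were compared between mouse morulae with and without knockdown of Nat10. They were chosen by symbol alone: the CCR4-NOT subunits, the PAN2-PAN3 and PARN deadenylases, the BTG and TOB proteins, the decapping factors, the XRN exonucleases, the RNA exosome with DIS3 and its relatives, the UPF and SMG proteins, and Pelo. All 53 genes matched by these symbols were found among the 12836 genes of the table. No measured value is part of the symbol rule, but earlier results of these data were known when it was chosen. The study held 1 library per group, both from ICR embryos at the morula stage. In 1 group (dsNat10) the injected double-stranded RNA targeted Nat10, and in the control (dsGFP) it targeted GFP, a jellyfish gene absent from the mouse. The design text names 50 injected morulae, without saying whether per library, and Nat10 is the enzyme that writes N4-acetylcytidine on RNA. With 1 library per group there is no replicate error, so each value describes these libraries, and no test was made. The intervals given are exact 95% intervals for counting error only. In such pools, fewer cells of a type and less RNA per cell cannot be told apart.

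An mRNA usually loses its poly(A) tail first. The PAN2-PAN3 and CCR4-NOT complexes remove the tail, the DCP2 enzyme with its partner DCP1 removes the cap, XRN1 then digests the body from the 5′ end, and the RNA exosome digests from the 3′ end. Nonsense-mediated decay, run by the UPF and SMG proteins, sends mRNA with an early stop codon into these pathways. In the early mouse embryo, this machinery is known for clearing the mRNA inherited from the egg.

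The libraries held 28303119 (dsNat10) and 29139232 (dsGFP) reads after rounding. Nat10 had 37 reads in dsNat10 and 886 in dsGFP. Of 12 morula markers, 11 were in the table, and all 11 were detected in both libraries. None of them was called higher in dsNat10 by the rule given below, and 4 were called lower: Cdx2 (4.52-fold), Nanog (3.17-fold), Tead4 (3.07-fold) and Krt8 (2.1-fold). Over all genes that reached the minimum level of that rule, 15.3% were called lower. Cdx2 (110 and 502 reads) reached this minimum through dsGFP alone, so for it a difference was built in. The part of these marker differences in the values of the decay genes was not tested. Markers of other cells were sparse. The oocyte list had 5 of 12 symbols in the table, and its TPM (transcripts per 1000000, a level per length) summed to 64.1 in dsNat10 and 36.2 in dsGFP. The cumulus list had 1 of 8 (Amhr2, 23.9 and 26.9 TPM) and the blood and fibroblast list 4 of 8 (75.2 and 82.6 TPM in sum), with Col1a1 at 0 in dsNat10.

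The summed level of the 53 genes was nearly equal, 3280 TPM in dsNat10 and 3198 TPM in dsGFP, but single genes within most complexes differed in opposite directions. Ratios below are of CPM (reads per 1000000, with TMM scaling), and log2 ratios add 1 CPM to each side. A gene was called when its mean was at least 5 CPM, its log2 ratio at least 1 in size, and its counting interval excluded equality. Of the 53 genes, 47 reached the mean of 5 CPM, and 41 reached 5 CPM in each library. The 6 between these counts (Tob1, Btg3, Cnot11, Exosc6, Dcp1a and Dcp2) passed through 1 library alone, so for them a difference was built in. Called higher in dsNat10 were 9 genes, against a background of 15.2% of all 8738 genes that passed, and 7 were called lower, against 15.3%. The 16 calls are 34% of the 47, beside 30.5% of all genes passing, so the share called was near the background. The median log2 ratio was -0.05 over the 47 genes and 0.01 over all genes.

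**Figure D1:**
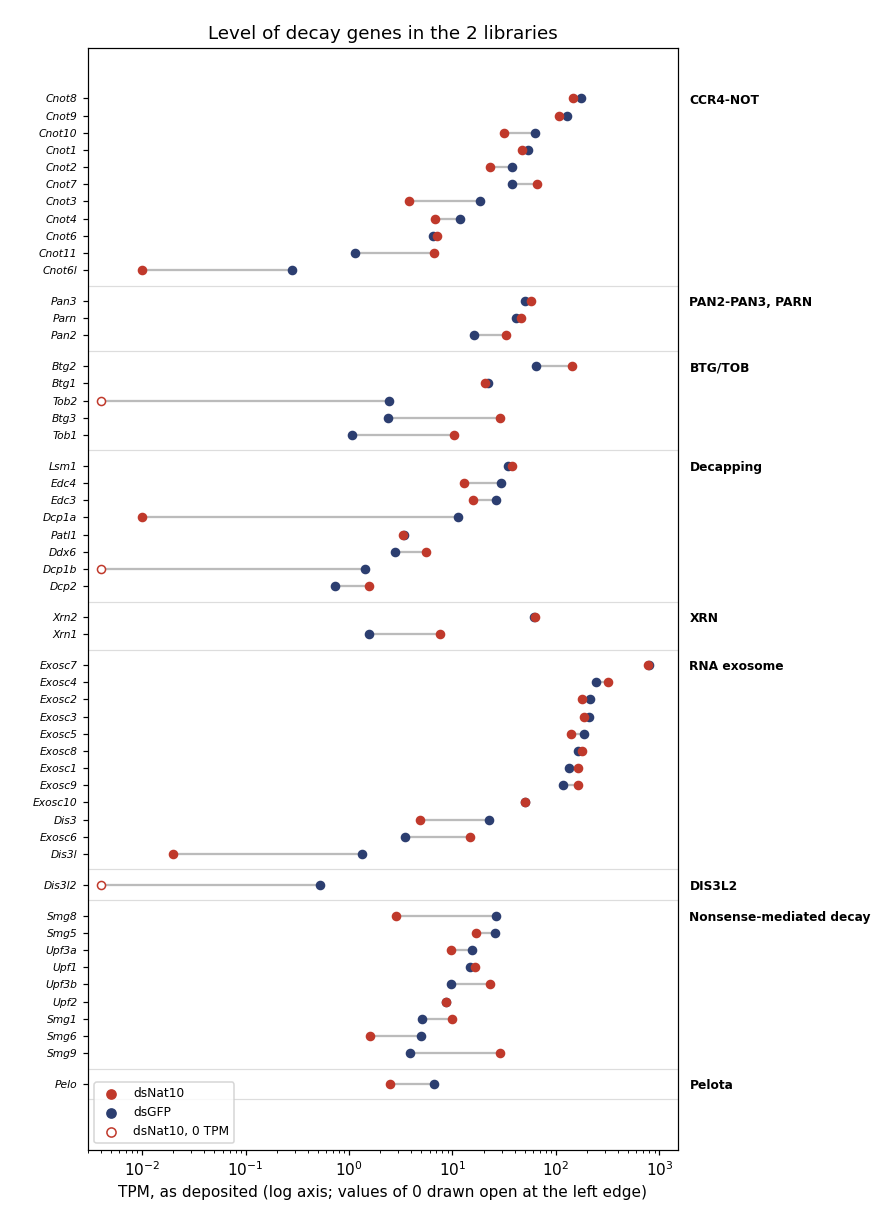
Level of the decay genes reported here in TPM (log axis), grouped by complex, with dsNat10 in red and dsGFP in blue and a grey line joining the libraries. Most exosome subunits lie above 100 TPM with the points close together, while Dcp1a is at 11.2 TPM in dsGFP and 0.01 TPM in dsNat10, and Tob2, Dcp1b and Dis3l2 are at 0 TPM in dsNat10.

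The promoter windows of 4 called genes are shown to set genes with lower reads in dsNat10 beside genes with higher reads. They are the 2 lowest and the 2 highest of the called genes that have whole-number counts, 1 window in the RefSeq promoter table (GRCm38.p6) and at most 30 window bases in annotated exons. Dcp1a and Smg8 were lower in dsNat10, and Tob1 and Btg2 were higher. Each run is the 250 bases before the start, 5′ to 3′ on the gene's strand, with matches to 4 motifs in capitals. For Dcp1a and Tob1, the RefSeq gene range begins upstream of the start that the table uses. For Btg2, the bases checked after the start were not found in a GENCODE M21 transcript, unlike for Dcp1a, Smg8 and Tob1.
Dcp1a, chr14:30479315-30479564, plus strand: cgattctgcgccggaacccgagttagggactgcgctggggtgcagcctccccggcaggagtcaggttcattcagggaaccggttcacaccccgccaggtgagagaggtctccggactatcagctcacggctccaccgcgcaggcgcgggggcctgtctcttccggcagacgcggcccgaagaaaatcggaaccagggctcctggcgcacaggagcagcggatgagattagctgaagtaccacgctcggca
Smg8, chr11:87086778-87087027, minus strand: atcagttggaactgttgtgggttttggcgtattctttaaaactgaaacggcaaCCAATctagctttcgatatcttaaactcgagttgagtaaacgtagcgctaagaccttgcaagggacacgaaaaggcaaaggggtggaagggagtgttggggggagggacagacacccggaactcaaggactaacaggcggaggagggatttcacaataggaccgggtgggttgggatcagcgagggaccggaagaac
Tob1, chr11:94211204-94211453, plus strand: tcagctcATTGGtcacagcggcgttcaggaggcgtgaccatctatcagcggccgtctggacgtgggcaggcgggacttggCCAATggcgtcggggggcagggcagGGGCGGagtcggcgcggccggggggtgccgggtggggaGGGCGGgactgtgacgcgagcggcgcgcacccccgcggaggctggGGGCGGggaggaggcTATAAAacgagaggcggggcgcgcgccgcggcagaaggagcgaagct
Btg2, chr1:134079156-134079405, minus strand: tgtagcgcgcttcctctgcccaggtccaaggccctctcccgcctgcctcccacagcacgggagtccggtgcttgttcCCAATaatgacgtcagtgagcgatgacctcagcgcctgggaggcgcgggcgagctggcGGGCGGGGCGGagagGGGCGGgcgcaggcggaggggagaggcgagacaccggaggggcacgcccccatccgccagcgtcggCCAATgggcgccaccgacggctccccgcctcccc
Searched on both strands, with overlapping matches counted, were TATAAA as the TATA box, CCAAT as the box bound by NF-Y, GGGCGG as the GC box bound by Sp1, and CCGGAAGT as the motif of ETS factors. The Dcp1a window held none of them and the Smg8 window held 1 CCAAT box. The Tob1 window held 1 TATA box, 2 CCAAT boxes and 3 GC boxes, and the Btg2 window held 2 CCAAT boxes and 3 GC boxes. Among 54 windows of 45 of the 53 genes, 68.5% held a GC box, 33.3% a CCAAT box and 3.7% a TATA box. Over all 32817 windows of the table these shares were 32.7%, 33.8% and 12.4%, and over the 13009 windows of genes in the expression table they were 54.7%, 36.4% and 6.90%. The ETS motif was in 1.85% of the 54 windows, in 2.88% of all windows and in 5.69% of those of genes in the expression table. The median number of CpG dinucleotides was 22 in the 54 windows and 14 in those of genes in the expression table. The 4 windows held 23 (Dcp1a), 12 (Smg8), 32 (Tob1) and 27 (Btg2). A match describes letters and no binding.

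In the CCR4-NOT complex, the main deadenylase of the cytoplasm, the summed level of the 4 catalytic subunits was alike in both libraries (221 TPM in dsNat10, 217 TPM in dsGFP), but its make-up differed. Cnot8 had 5824 reads in dsNat10 and 7135 in dsGFP, 1.21-fold lower (1.17 to 1.26). Its paralogue Cnot7 had 3120 and 1868 reads, 1.69-fold higher (1.59 to 1.79), which is short of a call. Cnot8 thus made up 66.9% of the catalytic TPM in dsNat10 and 79.6% in dsGFP, and Cnot7 made up 29.9% and 17.3%. The EEP-type nucleases were minor parts. Cnot6 had 735 and 708 reads (7.08 and 6.47 TPM), and Cnot6l had 1 and 48 reads, 47.5-fold lower (8.13 to 1915), with a mean below 5 CPM.

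The non-catalytic subunits of CCR4-NOT differed more widely. Cnot1, the scaffold, had 7462 and 8902 reads and was 1.18-fold lower (1.14 to 1.22). Cnot2 and Cnot3 form the NOT module together. Cnot2 had 1128 and 1953 reads, 1.71-fold lower (1.59 to 1.85), and Cnot3 had 187.64 and 1015.4 estimated reads, 5.34-fold lower (4.57 to 6.28). The Cnot3 value is uncertain, as described below. Cnot10 and Cnot11 form another module. Cnot10 had 1555 and 3308 reads, 2.11-fold lower (1.98 to 2.24), a call that is lost in TPM (log2 ratio -0.99). Cnot11 (Entrez gene 52846, chromosome 1) had 396 and 71 reads, 5.63-fold higher (4.37 to 7.36). It passed through dsNat10 alone, so the direction of its call was built in, and no split within the module is read from it. Cnot9, a platform for recruiting factors, had 6082 and 7666 reads (1.25-fold lower, 1.21 to 1.29), and Cnot4, a ubiquitin ligase, had 548 and 866 (1.56-fold lower, 1.40 to 1.74). The 10 CCR4-NOT genes that passed had a median log2 ratio of -0.30, with 7 below 0, 2 called lower and 1 (Cnot11) called higher.

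The other deadenylases were level or somewhat higher. Pan2, the nuclease of its complex, had 2674 and 1391 reads, 1.94-fold higher (1.82 to 2.07), just short of a call. Its adaptor Pan3 had 9898.28 and 9070.1 estimated reads, 1.1-fold higher (1.07 to 1.14). Parn, a separate poly(A) nuclease, had 2403 and 2285 reads, 1.06-fold higher (1.0 to 1.13). None of the 3 was called, and all 3 ratios lay above 0.

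BTG and TOB proteins, which bind the CNOT7 and CNOT8 nucleases and also restrain cell division, had the highest median of the sets with at least 3 passing genes. Of the 4 that passed, 3 were called higher, beside 15.2% of all genes passing. For Btg3 and Tob1 among these 3, a difference was built in, as both passed through dsNat10 alone. Btg2 (Entrez gene 12227, chromosome 1), the most abundant, had 7963 reads in dsNat10 and 3793 in dsGFP, 2.12-fold higher (2.04 to 2.21). It was the only called gene among the 14 members whose mean reached 100 CPM, a range in which 4.87% of all genes were called. Btg3 (Entrez gene 12228, chromosome 16) had 595 and 50 reads, 12-fold higher (9.0 to 16.4). Tob1 (Entrez gene 22057, chromosome 11) had 403 and 46 reads, 8.85-fold higher (6.51 to 12.3). Btg1 had 1947 and 2160 reads, 1.1-fold lower (1.03 to 1.17). Tob2 went the other way, with 0 and 191 reads, at least 63.0-fold lower against a floor of 3 reads, but its mean was below 5 CPM. The summed level of the 5 genes was 202 TPM in dsNat10 and 92.2 TPM in dsGFP, and the share of Btg2 in it was 70.3% and 69.7%.

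The median log2 ratio of the 4 passing BTG and TOB genes was 1.81. It depended on which low genes were counted: it was 1.08 over all 5 genes with no filter on the mean, and 0.47 over the 2 genes whose mean reached 20 CPM. Btg3 and Tob1 passed only through dsNat10. Btg3 shares 695 exonic bases with Cxadr on the opposite strand, and the library kit does not mark strand. Btg4, the CCR4-NOT adaptor of the egg and not one of the 53 genes, had 225 and 1 reads. Other oocyte markers had both directions, with Zp3 at 642 and 106 reads, H1f8 at 286 and 0, Padi6 at 440 and 1295, and Gdf9 at 1 and 54. The part of oocyte RNA in the BTG and TOB values was not tested.

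The decapping enzyme held the lowest ratio of the 53 genes. DCP1 activates the catalytic subunit DCP2, and mice have a pair of DCP1 genes. Dcp1a (Entrez gene 75901, chromosome 14, 30479486 to 30527056) showed 1 read in dsNat10 against 1244 in dsGFP, which is 1231-fold lower (221 to 48672). Of 982 genes with 1000 to under 1500 reads in dsGFP, 21 (2.14%) had at most 1 in dsNat10. In reverse it was 1 of 975 genes. The interval of Dcp1a covers counting error only. Dcp1b (Entrez gene 319618, chromosome 6) had 0 and 92 reads, at least 30.4-fold lower, with a mean below 5 CPM. Neither DCP1 gene was therefore measured above 1 read in dsNat10. Dcp2 itself had 255 and 125 reads, 2.06-fold higher (1.66 to 2.57), which the added 1 CPM kept short of a call (log2 ratio 0.90). In TPM, Dcp1a made up 83.9% of the 3 genes in dsGFP and 0.64% in dsNat10. Their summed level was 13.4 TPM in dsGFP and 1.57 TPM in dsNat10, and Dcp2 had 0.73 and 1.56 TPM.

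The enhancers of decapping were split as well. Edc4, the scaffold that joins DCP1 to DCP2, had 1146 and 2767 reads, 2.39-fold lower (2.23 to 2.56). Edc3, a second scaffold, had 951 and 1691 reads, 1.76-fold lower (1.62 to 1.91). It shares 1284 exonic bases with Clk3 on the opposite strand (2774 and 5862 reads), so its value is uncertain too. Ddx6, the helicase of processing bodies, had 390 and 173 reads, 2.28-fold higher (1.90 to 2.74). The call of Ddx6 is lost in TPM (log2 ratio 0.81), in FPKM (0.72) and with 5 CPM added (0.76). Lsm1 and Patl1, which bind the shortened tail together, were level, with 1395 and 1384 reads for Lsm1 and 259 and 274 for Patl1. Over the 7 decapping genes that passed, 1 was higher and 2 lower, and the median log2 ratio was -0.06. This median also depended on which genes were counted, at -1.02 with a mean of 20 CPM or more and -0.43 with no filter.

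**Figure D2:**
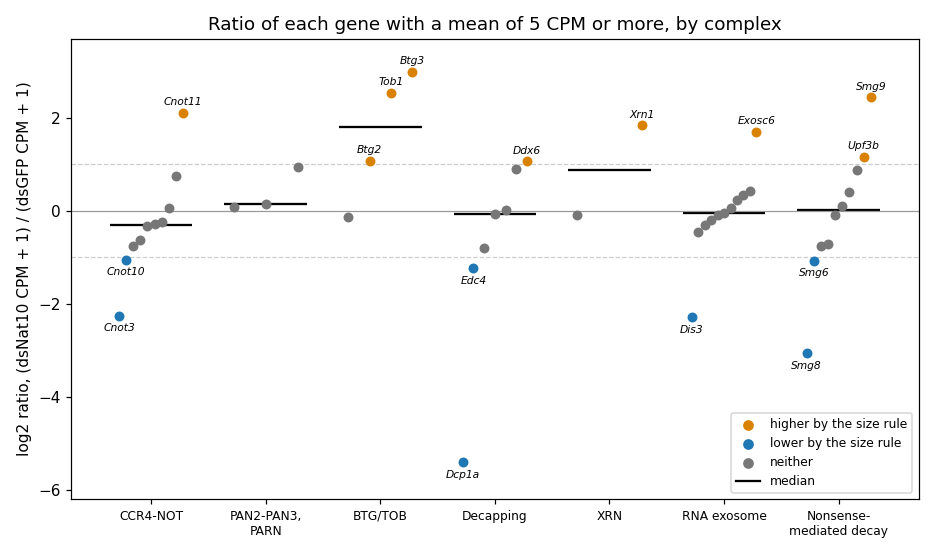
Log2 ratio of dsNat10 over dsGFP for each gene whose mean reached 5 CPM, by complex. Black bars are medians, dashed lines mark a log2 ratio of 1 in either direction, orange points are called higher and blue points lower. Every set with called genes except BTG/TOB and XRN holds calls in both directions. In CCR4-NOT and the RNA exosome, however, the only higher calls (Cnot11 and Exosc6) passed through dsNat10 alone, so their direction was built in.

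Of the exonucleases that digest from the 5′ end, the cytoplasmic Xrn1 was higher and the nuclear Xrn2 level. Xrn1 (Entrez gene 24127, chromosome 9) had 1195.08 and 317 estimated reads, 3.81-fold higher (3.36 to 4.32), with a fractional count in dsNat10. Xrn2 had 3799 and 4056 reads, 1.06-fold lower (1.01 to 1.1), but slightly higher in TPM (63.3 and 61.5). Xrn1 made up 10.7% of the TPM of this pair in dsNat10 and 2.46% in dsGFP.

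The RNA exosome was by far the most abundant set, and its ring was nearly level. This complex consists of a barrel of 9 subunits, Exosc1 to Exosc9, with no nuclease activity of its own, to which the nucleases DIS3, DIS3L and EXOSC10 attach. The 9 barrel genes summed to 2128 TPM in dsNat10 and 2068 TPM in dsGFP. Of these, 8 differed by 1.04-fold to 1.38-fold between libraries. Exosc7, the most abundant, had 12922 and 13792 reads (784 and 796 TPM). Exosc4 was 1.26-fold higher (1.22 to 1.30) with 9862.54 and 7911.91 estimated reads, and Exosc9 was 1.35-fold higher (1.29 to 1.41) with 4547.1 and 3399.8. Exosc1 had 4522 and 3902 reads, 1.17-fold higher (1.12 to 1.22), and Exosc8 had 3741 and 3632. On the lower side, Exosc5 had 2297 and 3209 reads, 1.38-fold lower (1.31 to 1.46). Exosc2 had 5233.84 and 6550.62, 1.24-fold lower (1.19 to 1.28), and Exosc3 had 3184 and 3673, 1.14-fold lower (1.09 to 1.20).

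Exosc6 stood apart from the other barrel genes in level and in ratio. It had 324 and 81 reads, 4.04-fold higher in dsNat10 (3.16 to 5.22), yet only 14.7 and 3.49 TPM, far below the 117 to 796 TPM of the other 8 in dsGFP. Exosc6 passed through dsNat10 alone, so the direction of its call was built in. It is a gene of 1326 bases whose whole length lies in annotated exons of Aars on the same strand, so its value is uncertain. Of the nucleases, Exosc10, the nuclear one, had 2567 and 2678 reads (1.03-fold lower, 0.98 to 1.09). Dis3 (Entrez gene 72662, chromosome 14), the main catalytic subunit, had 200.19 and 1101.58 estimated reads, 5.45-fold lower (4.69 to 6.37). Its cytoplasmic relative Dis3l had 1 and 86 reads, 85.1-fold lower (14.9 to 3401), and Dis3l2, which works without the exosome on uridylated RNA, had 0 and 34, at least 11.2-fold lower. Both had means below 5 CPM. Of the DIS3 family, Dis3 alone was therefore called lower. The 11 exosome genes that passed had a median log2 ratio of -0.05.

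Counts of 11 of the 53 genes are fractional in at least 1 library, and for 4 of them the deposited values show where reads were divided. Dis3 overlaps Pibf1 by 325 exonic bases on the opposite strand. Their estimated reads add to whole numbers in each library, within 0.005 reads: 478 in dsNat10 and 1786 in dsGFP. This pair sum was 3.7-fold lower in dsNat10, so the direction for the pair does not rest on how its reads were divided. Cnot3 and Leng1 likewise share 433 exonic bases and add to 1947 and 2464 reads. That sum was only 1.25-fold lower, but Leng1 held most of it in each library (1759.36 and 1448.6 estimated reads). The sum therefore cannot show how far the 5.34-fold difference of Cnot3 depends on the division, and the Cnot3 value stays uncertain. Exosc4 with Oplah (9868 and 8370 reads, 1.19-fold higher) and Exosc9 with Ccna2 (12315 and 9430, 1.32-fold higher) complete the 4. The fractional values of Exosc2, Pan3, Smg5, Smg6, Smg9, Upf3b and Xrn1 found no overlapping partner of this kind and are uncertain too. Exonic bases were shared with another gene of the table by 13 of the 53 genes. Some of these have whole counts, such as Cnot7, which shares 247 bases with Zdhhc2 (0 and 442 reads).

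In nonsense-mediated decay, a gene called lower and a gene called higher belong to the same kinase complex. SMG1 is the kinase that phosphorylates UPF1, and SMG8 and SMG9 bind and regulate it as a pair. Smg8 (Entrez gene 74133, chromosome 11, 87077732 to 87086777) showed 167 reads in dsNat10 against 1628 in dsGFP, 9.65-fold lower (8.22 to 11.4). Smg9 (Entrez gene 71997, chromosome 7) had 1250.64 and 209.29 estimated reads, 6.05-fold higher (5.22 to 7.04), with fractional counts. Smg1 had 2940 and 1603 reads, 1.85-fold higher (1.74 to 1.97), short of a call. The summed level of the 3 genes was 41.7 and 35.4 TPM. Smg8 made up 74.5% of it in dsGFP and 6.81% in dsNat10, and Smg9 made up 11% and 69.5%.

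Of the 4 UPF genes, Upf1 and Upf2 were near level and Upf3b was called higher. Upf1, the helicase at the centre of the pathway, had 1431 and 1340 reads, 1.08-fold higher (1.0 to 1.16), and Upf2, its bridging partner, had 835 and 894 (1.06-fold lower, 0.96 to 1.17). The paralogues that link the pathway to the exon junction complex went apart. Upf3b had 1058.46 and 461.16 estimated reads, 2.32-fold higher (2.08 to 2.59), while Upf3a had 271 and 479, 1.75-fold lower (1.5 to 2.04). Among the factors that bind phosphorylated UPF1, Smg6, an endonuclease, had 148.23 and 349.13 estimated reads, 2.33-fold lower (1.92 to 2.85), a call lost with 5 CPM added (log2 ratio -0.75). Smg5 had 1294.48 and 2178.08, 1.67-fold lower (1.55 to 1.79). Over the 10 genes of nonsense-mediated decay, 2 were higher and 2 lower, with a median log2 ratio of 0.01. Pelo, which frees stalled ribosomes, had 67 and 188 reads, 2.78-fold lower (2.09 to 3.73), at a mean below 5 CPM.

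**Figure D3:**
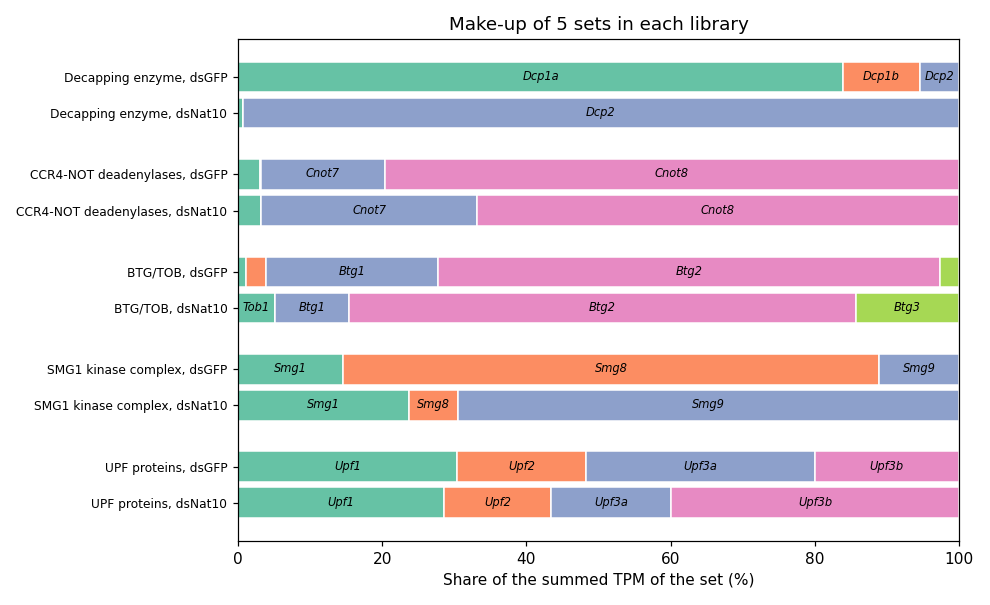
Share of each gene in the summed TPM of 5 sets (in %), with dsGFP above dsNat10 in each pair of bars. Dcp1a holds 83.9% of the decapping enzyme in dsGFP, where its 3 genes sum to 13.4 TPM. Dcp2 holds 99.4% in dsNat10, where they sum to only 1.57 TPM. In the SMG1 set, Smg8 is the largest part in dsGFP and Smg9 in dsNat10.

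The size of the ratios followed the level of the genes, among these genes and over the whole table. Of 9 members with a mean of 5 to under 20 CPM, 6 were called (66.7%), beside 54.7% of all genes in that range. From 20 to under 50 CPM, 7 of 13 were called (53.8%, beside 31.6%), and from 50 to under 100 CPM 2 of 11 (18.2%, beside 15.9%). At 100 CPM or more it was 1 of 14 (7.14%, beside 4.87%). In each range the share among members was above that of all genes, a difference that was not tested. The rank correlation of the level with the size of the log2 ratio was -0.53 over the 47 members and -0.49 over all 8738 genes, from the same 2 libraries. The near-level exosome thus lay where most genes were near level: its 8 abundant barrel genes had means of 95.8 to 465 CPM.

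**Figure D4:**
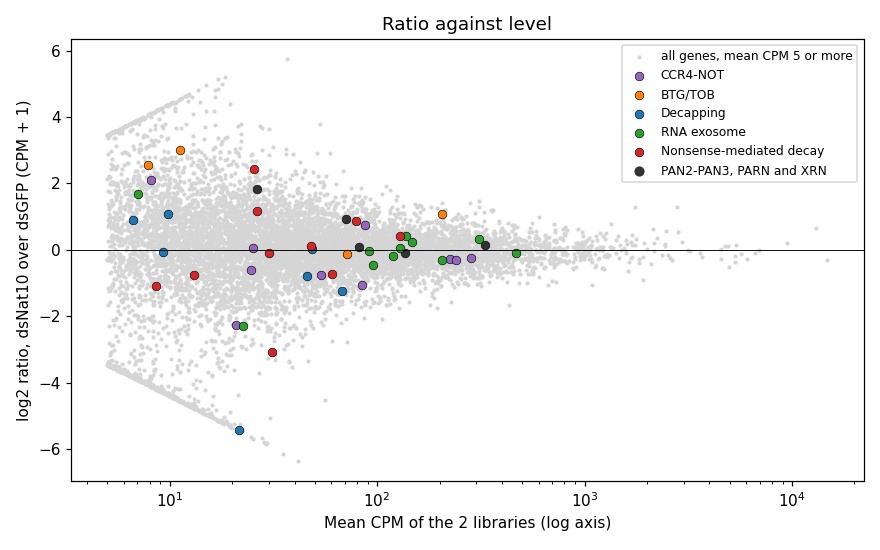
Log2 ratio of dsNat10 over dsGFP against the mean CPM of the libraries (log axis), with all 8738 passing genes in grey and the 47 members in colour by complex. Members follow the narrowing of the grey cloud with rising level, and Dcp1a lies at its lower edge at a log2 ratio of -5.41.

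Few members had low reads in dsGFP. Of the 8 with 30 to under 100 reads in dsGFP, 4 had at most 1 read in dsNat10 (Cnot6l, Dcp1b, Dis3l and Dis3l2). The other 4 (Cnot11, Tob1, Btg3 and Exosc6) had 324 to 595 reads in dsNat10 and were called higher. A gene with so few dsGFP reads reaches the mean of 5 CPM only if it is high in dsNat10, so the direction of these calls was built in. How many of all genes in this range were called higher was not counted, so these 4 calls cannot be set against a background. Near-zero values at this level were common in dsNat10 in general, with at most 1 read for 57.1% of the 1608 genes of that range, while 11% of 553 genes with as many reads in dsNat10 had at most 1 in dsGFP. For Tob2, in the range of 100 to under 200 dsGFP reads, the share was 40.0% of 1308 genes. The lower bounds given above do not cover such common zeros.

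Genes that work with this machinery were also examined, from lists chosen by function. Of 80 found in the table, 70 passed, with a median log2 ratio of 0.06. Called higher were 13 (18.6%, beside 15.2% of all genes passing), and called lower were 6 (8.57%, beside 15.3%). Of the 70, 9 reached the mean of 5 CPM through 1 library alone, so for them a difference was built in. Among the 61 that reached 5 CPM in each library, 9 were higher (14.8%) and 1 lower (1.64%), beside 10.3% and 8.91% of all 7372 such genes. The 17 passing proteins that bind mRNA and recruit decay factors had 7 higher and 2 lower, with a median of 0.75, but 6 of these 9 calls (Tnrc6a, Tnrc6c, Nanos1, Rc3h2, Nanos3 and Rc3h1) passed through 1 library alone. Over the 11 that reached 5 CPM in each library, 3 were higher and none lower, with a median of 0.68. The adaptors between Argonaute and CCR4-NOT went both ways. Tnrc6a had 728 and 92 reads (7.99-fold higher) and Tnrc6c had 698 and 39 (18.1-fold higher). Their paralogue Tnrc6b, named after its values were seen, had 0 and 204 reads, at least 67.3-fold lower, at a mean below 5 CPM. Nanos1, a regulator of germ cell mRNA, had 354 and 53 reads (6.75-fold higher). Cpeb2 and Cpeb3 were 2.58-fold and 2.28-fold higher. The Roquin paralogues went apart, with Rc3h2 at 413 and 13 reads (32.1-fold higher) and Rc3h1 at 24 and 785 reads (32.4-fold lower, with fractional counts). Nanos3 was 3.26-fold lower, and the abundant Ythdf2 had 11346 and 9661 reads.

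Of 8 passing partners of decapping, 3 were higher (37.5%, beside 15.2% of all genes passing) and 1 was lower (12.5%, beside 15.3%). Among the 7 that reached 5 CPM in each library, 3 were higher (42.9%, beside 10.3% of all such genes). None of the 7 was lower, beside 8.91%, and their median log2 ratio was 0.83. Lsm14a (3.14-fold), Lsm14b (2.76-fold) and Pnrc2 (3.67-fold), which bind DDX6 or DCP1, were higher, while Nudt16, another decapping enzyme, had 0 and 459 reads, at least 151-fold lower, and passed through dsGFP alone. The cap-binding Eif4e, the most abundant of this list, had 15253 and 21979 reads. The other 6 subunits of the LSM ring around Lsm1 had no call (median 0.02), with Lsm7 at 7125 and 5892 reads. Of 11 exosome cofactors, Skiv2l, the helicase of the cytoplasmic SKI complex, was 8.79-fold lower (87 and 773 reads). It passed through dsGFP alone, and among the 10 cofactors that reached 5 CPM in each library none was called. Wdr61, also of the SKI complex, had 5918 and 7518 reads. Of 14 tail enzymes and tail-binding proteins, Tent4b and Tent2 were 2.14-fold and 2.05-fold higher. Pde12 was 3.74-fold lower, and Tent4a had 0 and 417 reads (at least 138-fold lower) but passed through dsGFP alone. Pabpc1, a poly(A)-binding protein with the highest mean CPM of this list, had 20398 and 11681 (1.76-fold higher, short of a call). Of 14 genes for exon junctions, nonsense-mediated decay and termination, Nbas was 4.95-fold higher (1362 and 278 reads), and the abundant Ruvbl2, with fractional counts, was level at 26825 and 26641.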

How the data were processed

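RNA was measured in 1 library of dsNat10 and 1 of dsGFP morulae. Per the labels' protocols, libraries were made from polyadenylated RNA by SMART-seq2. The tools, per the submitters' processing notes, were Trim Galore, HISAT (genome GRCm38) and HTSeq, and their versions are not stated in those notes. Estimated counts were deposited without normalization. They are fractional for 23.2% of genes, so the program behind them is not certain. The authors also deposited TPM (summing to 1000000 per library) and FPKM values, both divided by gene length.

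Estimated counts were rounded, and CPM was computed with TMM scaling (edgeR 4.0.16, R 4.3.3), which moved log2 ratios by -0.03 against plain totals. Intervals are exact Clopper-Pearson intervals of the ratio of counts (SciPy 1.17.1). They take reads as independent, which PCR reads without molecular identifiers are not. A value of 0 reads was set to a floor of 3 reads, 0.105 CPM in dsNat10, to give a bound. The size rule was run on simulated counts that hold counting error only. They lack the differences between libraries and the frequent zeros described above, so they do not bear on the calls in these data. Coordinates are from the RefSeq table of GRCm38.p6, matched by Entrez identifier for all 53 genes, and exons from GENCODE M21. The genes, lists and complexes were chosen with earlier results of these data known. Every gene matched by the symbols could be named, and of the partner lists each called gene and the most abundant passing one. Proteins were not analysed here. Some genes are left out of the text but stay in all totals. Alternatives were plain totals, DESeq2 1.42.0 size factors, other pseudocounts and filters, TPM, FPKM, and leaving out fractional counts.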

Additional observations from a re-analysis of the deposited data

How the results depend on the processing

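With 1 library per group, no replicate could be left out and no paired analysis was possible because each group has a single library. Under plain totals, DESeq2 size factors and 0.5 CPM added, 9 members were higher and 7 lower, and all 16 calls were kept. With a mean of 20 CPM or more, 38 members were tested, 4 were higher and 6 lower, and the medians were 0.47 for BTG/TOB, -1.02 for decapping and 0.26 for nonsense-mediated decay. Without a filter, 13 were lower, and the medians were 1.08 for BTG/TOB and -0.43 for decapping. These shifts come from the number of low genes counted. Without the fractional genes, 36 were tested, 6 were higher and 4 lower, and the median of PAN2-PAN3 and PARN was 0.51. With 5 CPM added, the BTG/TOB median was 1.30. In TPM the medians of CCR4-NOT and of PAN2-PAN3 and PARN were -0.24 and 0.19. With 5 CPM added and in TPM, 8 members were higher and 6 lower, and in FPKM 8 and 7. No called member with a value changed direction under any of the 9 alternatives. For the partner genes, a minimum of 5 CPM in each library, chosen after seeing the data, left 9 higher and 1 lower. Of members not called, Xrn2 and Exosc10 were above 0 in TPM, and Xrn2 also in FPKM.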

Other observations

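Reads per unit of TPM give the transcript length behind the authors' TPM, up to a constant per library. Relative to the median gene, this length differed by more than 1.1-fold between libraries for 6 of 45 members (13.3%) with at least 1 TPM in each, beside 8.32% of 7852 genes. Smg6 had a dsNat10 length 1.38 times that in dsGFP, Ddx6 1.17 times and Cnot4 1.16 times. Xrn1 had 0.81 times, Smg9 0.85 times and Dis3 0.88 times. For these 6 genes the ratio in TPM differs from that in reads: Xrn1 had 7.62 and 1.55 TPM, and Smg6 had 1.59 and 4.91 TPM. Isoform values were not analysed here, and 4 of the 6 (Smg6, Xrn1, Smg9 and Dis3) also have fractional counts.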
